A study of Mus musculus with 2 samples.

Results

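The cells described here were 65 droplet barcodes from mouse spleen that carried transcripts of cytotoxic lymphocytes inside a library sorted as conventional dendritic cells. They were selected on raw UMIs (unique molecular identifiers, each standing for 1 captured RNA molecule) in barcodes with at least 500 genes and at most 10% mitochondrial UMIs. A cell entered with at least 1 UMI of Gzmc or at least 2 of Cd3e, together with at least 2 UMIs over Ctsw, Xcl1 and Nkg7, no Xcr1 and at most 2 UMIs of Fscn1. In L-cDC, 65 of 4086 kept cells met all conditions, 1.59% (exact Clopper-Pearson 95% interval 1.23% to 2.02%). In M-cDC, 0 of 5848 kept cells did, which allows a share of up to 0.0513% by 3 counts of the total (the exact two-sided 95% interval ends at 0.0631%), and Gzmc had 0 UMIs over all 6674 deposited M-cDC barcodes. With at most 5% mitochondrial UMIs the share in L-cDC was 0.901%, 32 of 3553 cells. The whole series held 9934 kept cells. The genes of the gate chose the members and are given as a description only.

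The animals were naive, 7 to 9 weeks old and of the genotype Il7r-cre; Rosa26-lsl-tdTomato. After bead enrichment of their spleens for CD11c, tdTomato+ cells (L-cDC) and tdTomato- cells (M-cDC) were sorted and 1 single-cell library was made of each. In these mice Cre recombinase under Il7r control switches on tdTomato for good, so tdTomato marks a cell that has, or descends from a cell that had, transcribed Il7r, and it does not mark a cell type by itself. All animals carried both alleles and none was treated. The number of mice per library is not given in the sources used here, and each group is a single library, so no test between groups was possible and every interval below covers counting error alone.

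Natural killer (NK) cells and type 1 innate lymphoid cells (ILC1) are cytotoxic lymphocytes without a rearranged antigen receptor, whereas T cells signal through a T cell receptor held in the CD3 complex. Granzymes are serine proteases delivered into target cells through pores made by perforin. In the mouse, Gzmb and Gzmc belong to a granzyme cluster on chromosome 14, and Gzmc is known from ILC1 and from strongly activated T cells. The integrins CD103 (Itgae) and CD49a (Itga1) hold lymphocytes in tissue, and CD11c (Itgax), the marker used for enrichment, is also found on some NK cells, ILC1 and T cells.

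Gzmc lies at chr14:56231441-56234656 on the minus strand of GRCm38, between Gzmf and Gzmb. The 250 bases before the start of 3 genes of the cluster are shown because Gzmc was abundant in the members while its neighbours were rare or were carried by other cells. They are RefSeq promoters on GRCm38.p6, read 5′ to 3′ along the minus strand, at chr14:56234658-56234907 for Gzmc, chr14:56211408-56211657 for Gzmf and chr14:56262335-56262584 for Gzmb. Capitals mark matches to TGACGTCA, the letters of a CREB/ATF site, and to TGTGGT or its reverse complement ACCACA, the core bound by RUNX factors.
Gzmc: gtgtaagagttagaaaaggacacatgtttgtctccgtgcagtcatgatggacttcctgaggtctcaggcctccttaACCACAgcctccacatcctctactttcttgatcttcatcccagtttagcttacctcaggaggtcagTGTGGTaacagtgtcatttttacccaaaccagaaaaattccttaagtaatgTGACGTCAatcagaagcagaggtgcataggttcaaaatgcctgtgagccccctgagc
Gzmf: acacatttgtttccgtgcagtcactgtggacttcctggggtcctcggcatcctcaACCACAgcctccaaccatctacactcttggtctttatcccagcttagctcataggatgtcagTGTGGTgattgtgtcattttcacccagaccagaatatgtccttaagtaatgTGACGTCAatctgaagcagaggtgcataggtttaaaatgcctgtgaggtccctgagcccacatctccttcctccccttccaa
Gzmb: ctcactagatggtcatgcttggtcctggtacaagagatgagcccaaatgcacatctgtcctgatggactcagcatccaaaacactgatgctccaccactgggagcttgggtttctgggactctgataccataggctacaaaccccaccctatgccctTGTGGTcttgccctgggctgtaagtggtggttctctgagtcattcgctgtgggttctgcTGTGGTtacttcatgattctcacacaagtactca
Gzmc and Gzmf were identical at 85.8% of 225 aligned bases, and Gzmc and Gzmb at 62.5% of 216. TGACGTCA, which is its own reverse complement, stood 57 bases before the start of Gzmc and 82 before that of Gzmf and was not in the Gzmb window; 1.55% of 32851 promoter windows of the same length held it. TGTGGT on either strand was in all 3 windows and in 14.05% of all windows. AGGTGTG or CACACCT, a T-box core, was in none of the 3 and in 5.10% of all windows. These motifs were chosen after the sequences had been seen, and a match is a description of letters, not of a bound site. Distances refer to RefSeq starts. GENCODE places the starts at 56234656 for Gzmc, 56211417 for Gzmf and 56262260 for Gzmb, so the windows lie differently against them. The bases between the Gzmb window and its GENCODE start were not searched. Of the 50-base stretches of the Gzmc transcripts, 4.14% also occurred in transcripts of another gene, most often Gzme.

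Gzmc UMIs were spread very unevenly over the members, and 3 groups of them were defined after the values had been seen. Of the 65 members, 56 entered by Gzmc alone, 7 by Cd3e alone and 2 by both. In 48 Gzmc-high members the count ran from 5 to 1108 UMIs with a median of 196.5. In 10 Gzmc-low members it was 1 to 3, and in 7 Gzmc-zero members it was 0; no member had 4. The 48 cells held nearly all the Gzmc of the members: Gzmc stood at 25974.5 CPM in them (UMIs of the gene per 1000000 UMIs of the group, exact Poisson 95% interval 25523 to 26432) and at 146 CPM in the Gzmc-low members. The cell with the most Gzmc gave 8.78% of the UMIs of the Gzmc-high group.

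The entry through a few Gzmc UMIs lay within the background of the library. Among the 4021 other L-cDC cells, 359 (8.93%) carried Gzmc, and 330 of them had a single UMI. A further 19 had 2 UMIs and 10 had 3 or more. Members held 81.7% of the Gzmc UMIs of all kept L-cDC cells, so part of the Gzmc lay outside the gate. In 219 cDC1-gated cells (Xcr1 of at least 2 and Clec9a of at least 1, median 16440 UMIs), which should lack granzymes, 9.59% had a Gzmc UMI, against a median depth of 9435 UMIs in the members. The Gzmc of the Gzmc-low members, 7 of which had a single UMI, cannot be told apart from that level. With at least 5 Gzmc UMIs required in place of 1, the gate found 55 L-cDC cells and still 0 in M-cDC.

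**Figure D1:**
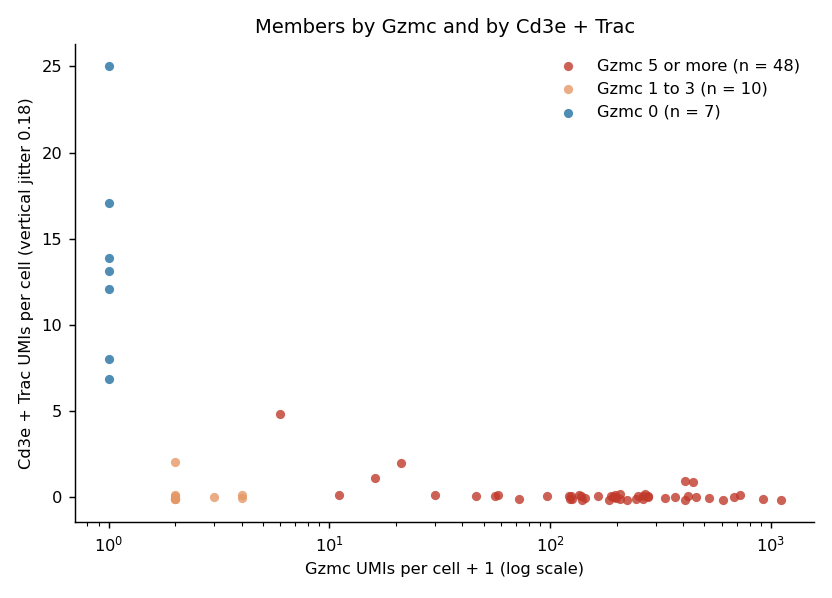
Each point is 1 of the 65 members, with its Gzmc UMIs plus 1 on a log axis and its summed Cd3e and Trac UMIs on the vertical axis, with jitter. The 7 cells without Gzmc carry the highest sums of Cd3e and Trac, and cells with at least 29 Gzmc UMIs lie at 0 or 1.

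A few cells just outside the gate carried as much Gzmc as the Gzmc-high members. Of 436 kept L-cDC cells with enough Gzmc or Cd3e, 355 had fewer than 2 UMIs of Ctsw, Xcl1 and Nkg7 and 16 failed on Xcr1 or Fscn1 alone. Of those 16, 4 had 3 or 4 UMIs of Fscn1 and carried 824, 486, 330 and 188 Gzmc UMIs, and 11 had more than 4 UMIs of Fscn1. Just inside, 1 member had 2 UMIs of Fscn1 and 20 had 1. A single member had only 2 UMIs over Ctsw, Xcl1 and Nkg7, and the next lowest had 12.

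The 7 Gzmc-zero members carried transcripts of the T cell receptor complex. Cd3e, the CD3 chain that admitted them, ran from 3 to 10 UMIs per cell. Cd3d, another CD3 chain and no part of the gate, had 4 to 25 UMIs in each and reached 824 CPM (682 to 986), against 5.02 CPM in cDC1-gated cells. Trac, the constant region of the receptor's alpha chain, was found in 6 of 7 with 4 to 15 UMIs, and Cd8a, the alpha chain of the CD8 coreceptor, in all 7 with 1 to 16. Cd8b1, the beta chain of CD8, was found in 5 of 7, and Cd4 in none. cDC1 also transcribe Cd8a, and 84.5% of cDC1-gated cells had a UMI of it, but only 5.02% had Cd8b1.

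A single Gzmc-zero member had no Trac and no Trbc1, but 42 UMIs of Trbc2, the other beta chain constant region. It carried 19 UMIs of Trdc, the constant region of the delta chain, 9 of Tcrg-C2, a gamma chain constant region, 354 of Gzma and 66 of Gzmb, and all Gzma and Gzmb UMIs of the Gzmc-zero group came from it. Another Gzmc-zero member had 161 UMIs of Cd74 and 3.56% of its UMIs in MHC class II genes beside 4 of Cd3e. That cell was also the member with only 2 UMIs over Ctsw, Xcl1 and Nkg7. Its Scrublet score did not pass the doublet threshold, and whether it held RNA of more than 1 cell was not tested.

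Cells with much Gzmc had almost no Cd3e, Cd3d or Trac. Of the 48 Gzmc-high members, 44 had at least 29 Gzmc UMIs, and in these Cd3e was at 0 in every cell, Trac had a single UMI in 2 cells and Cd3d a single UMI in 6. The other 4, with 5, 10, 15 and 20 Gzmc UMIs, were different: they carried 4 to 8 UMIs of Cd3d and 6 to 18 of Cd3g, and 3 of the 4 had Cd3e. Those 4 cells gave 22 of the 28 Cd3d UMIs of the Gzmc-high group. UMIs of the variable segments of T cell receptor genes, which the 3′ kit captures poorly, were few and were not used to class cells. Trav segments were found in 1 Gzmc-high and 2 Gzmc-zero cells, against 4 NK-gated and 2 cDC1-gated cells. Gamma chain segments had 14 UMIs in 3 Gzmc-zero and 5 UMIs in 5 Gzmc-high cells, against 3 UMIs in 2 NK-gated cells and 0 in cDC1-gated cells. Delta chain segments had 8 UMIs in 5 Gzmc-low, 2 in 2 Gzmc-high and 0 in Gzmc-zero cells, against 27 in 23 NK-gated and 3 in 3 cDC1-gated cells.

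Cd3g, the gamma chain of CD3, did not follow Cd3e and Cd3d. Among the 44 members with at least 29 Gzmc UMIs it was found in 18 cells, with up to 46 UMIs in the cell with 1108 Gzmc UMIs, and summed to 369 CPM, while Cd3d summed to 12.9 CPM. In NK-gated cells Cd3g stood at 26.2 CPM. The genes of the beta chain constant regions were also common, with Trbc1 in 43 of the 44 cells and Trbc2 in 34. Trbc1 and Trbc2 share 40.5% and 44.0% of their 50-base stretches, and reads from those stretches cannot tell the genes apart.

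Sorting the members on 4 T cell genes, Cd3e, Trac, Trbc2 and Cd28, did not separate cells with Cd3e and Trac from the rest. Under a rule asking for a sum of at least 2 with Trac or Trbc2, 48 members were T-gene-positive, 11 had none of the 4 genes and 6 were unresolved. Trbc2 was the sole gene of the 4 in 22 of the 48, and Cd3e and Trac were both at 0 in 35 of them. The same rule called 54 of 106 NK-gated cells T-gene-positive, and 38 of the 106 carried Trbc2 with none of the other 3 genes. With Trbc2 left out, 15.4% of the members were positive and 52.3% had no T cell gene. By Cd3e and Trac alone, 13 of the 65 members had a UMI of either gene. The T-gene-positive group held 37 Gzmc-high, 4 Gzmc-low and all 7 Gzmc-zero members.

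Between T-gene-positive and T-gene-negative members, 336 of 2574 genes considered were at least 2-fold higher (13.1%) and 98 lower (3.81%). Genes were considered from 50 CPM in the higher group and 30 UMIs over both and, between groups of members and in the Gzmc-high comparison below, UMIs in at least 5 cells of the higher group. That minimum of cells is harder to meet among 11 T-gene-negative than among 48 T-gene-positive members, so higher and lower genes were not counted on equal terms. The groups held 585610 and 86281 UMIs, and with each cell reduced at random to 3000 UMIs only 77 higher and 15 lower genes were left of 725 considered. Cd3g was at 475 against 46.4 CPM, 10.2-fold (3.95 to 37.8), and Ccl4, a chemokine of activated cytotoxic cells, at 2080 against 46.4 CPM, but a single cell held 48.4% of its UMIs. Of 11 genes of the NK list considered, 9 lay within 2-fold and 2 were lower. Ncr1 was 5.02-fold (3.42 to 7.31) lower in T-gene-positive members and Klrb1c 3.94-fold (2.08 to 7.27) lower. Of 13 genes of the T cell receptor list considered, 7 were higher and 1 lower, with 3 of the 7 used in the split. Gzmc-low cells made up 5 of the 11 T-gene-negative and 4 of the 48 T-gene-positive members. All 7 Gzmc-zero cells, admitted by Cd3e, were T-gene-positive and gave 144455 of the 585610 UMIs of that group. They held 119 UMIs of Cd3d and 69 of Cd3g, and 0 of Ncr1 and of Klrb1c. The part of the Gzmc-low and Gzmc-zero cells in these differences was not tested.

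**Figure D2:**
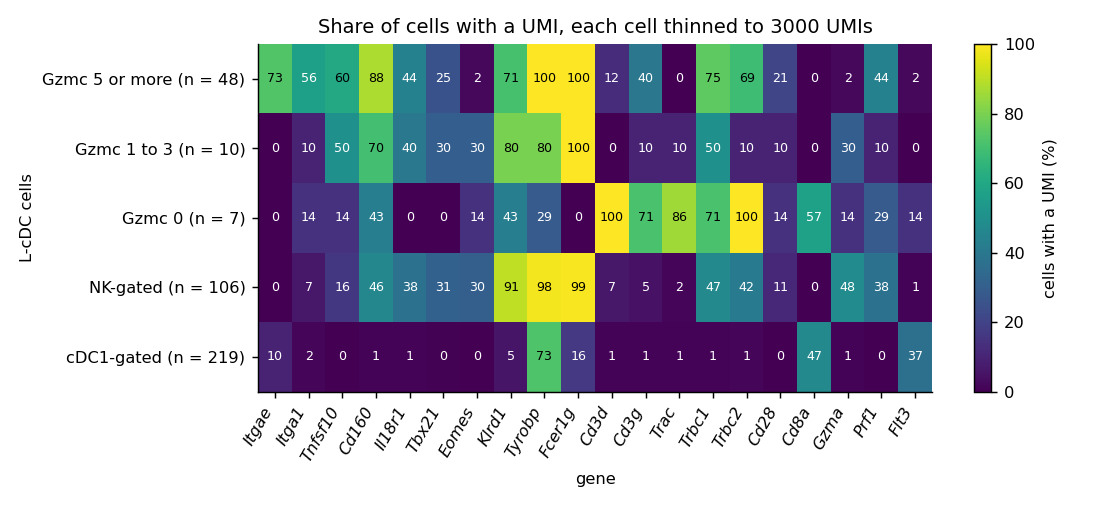
Colours and numbers give the percentage of cells with at least 1 UMI of each gene (columns) in each group of L-cDC cells (rows), after every cell was reduced to 3000 UMIs. Itgae is found in 73% of the Gzmc-high members and in none of the Gzmc-low, Gzmc-zero or NK-gated cells, Cd3d and Trac lead in the Gzmc-zero members, and Gzma leads in NK-gated cells.

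The members carried few transcripts of dendritic cells, although the submitters labelled both libraries as conventional dendritic cells. Genes of MHC class II (H2-Aa, H2-Ab1, H2-Eb1) and its invariant chain Cd74 made up a median of 0.0617% of a member's UMIs, against 4.24% in cDC1-gated cells and 1.99% in 2720 mature-gated cells (Ccr7 of at least 1 and Fscn1 of at least 3). Apart from the Cd74-rich Gzmc-zero cell, the highest member stood at 0.206%. Flt3, the receptor for the growth factor on which dendritic cells depend, was found in 3 of 65 members against 86.3% of cDC1-gated cells, and Zbtb46, a transcription factor that sets these cells apart from other myeloid cells, in 5 of 65. The exception was Itgax, the gene of CD11c, in the Gzmc-high members. It was found in 47 of 65 members at 158 CPM (131 to 189.9), and at 222 CPM in the Gzmc-high members, against 61.9 CPM in cDC1-gated and 29.7 CPM in mature-gated cells. The other members carried less, with 48.8 CPM in Gzmc-low (5 UMIs) and 20.8 CPM in Gzmc-zero cells (3 UMIs). Itgax did not set the Gzmc-high members apart from the NK-gated cells defined below, where it lay within 2-fold.

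**Figure D3:**
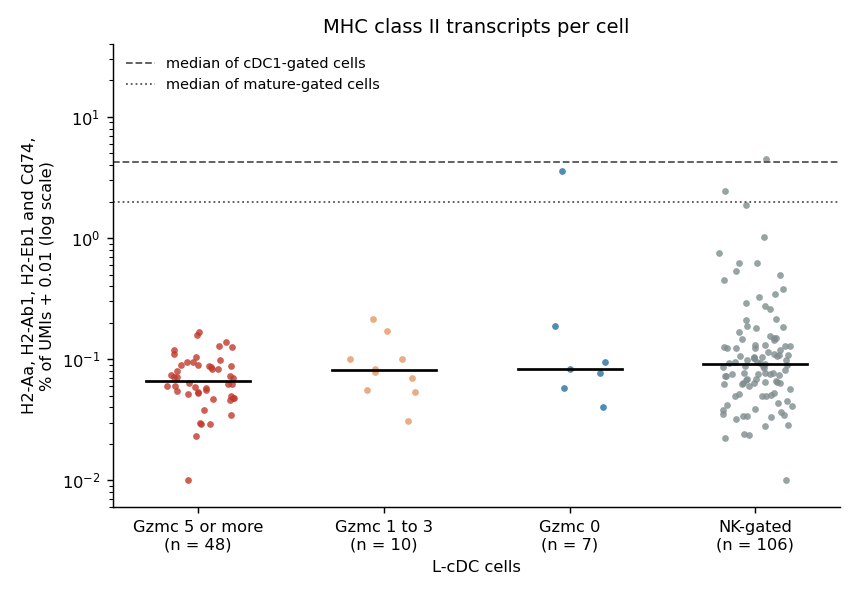
Each point is 1 cell, the vertical log axis gives the percentage of its UMIs in H2-Aa, H2-Ab1, H2-Eb1 and Cd74 plus 0.01, bars are medians and the dashed and dotted lines are the medians of cDC1-gated and mature-gated cells. The 48 Gzmc-high members lie at or below 0.159%, and 1 Gzmc-zero cell at 3.56%.

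Against the 4021 other L-cDC cells, which the gate was made to exclude, 854 of 3208 genes considered were at least 2-fold higher in the members (26.6%) and 598 lower (18.6%). The median log2 ratio over all genes considered was 0.35. Among genes outside the gate the highest were Serp2, at 69.6 against 0.446 CPM and 156-fold (88.6 to 288), Pdzk1, a scaffold protein gene, at 153-fold (91.05 to 269), and Ptpn5, a tyrosine phosphatase gene, at 142-fold (81.02 to 258). Rgcc, a regulator of the cell cycle, stood at 232 against 2.62 CPM and Tnfsf10, the death ligand TRAIL, at 259 against 3.10. Il2rb, the shared receptor chain for interleukins 2 and 15 on which NK cells and ILC1 depend, was 31.7-fold (28.2 to 35.7) higher and was found in 63 of 65 members.

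Because the gate chose these cells, the counts by gene list in this comparison are a description. All 14 considered genes of the NK list were at least 2-fold higher (median log2 ratio 2.95), as were 15 of 16 of proximal antigen receptor and NK signalling (3.94). Of 16 of the ILC1 list 12 were higher, with Gzmc, Ctsw and Xcl1 of the gate among them, and 3 were lower, Tmem176a, Tmem176b and Il21r. Of 13 of the T cell receptor list 11 were higher, with Cd3e of the gate among them. All 15 genes of the mature Ccr7+ dendritic cell list were lower (-5.20), with Fscn1, one of them, used by the gate. Of 11 considered genes of MHC class II and the dendritic core, 10 were lower and Itgax was higher. Of 6 of the cDC1 list, 4 were lower, with Xcr1 among them because the gate required it to be at 0, and Itgae was higher. No gene of the B cell, cDC2, neutrophil and mast cell, or erythroid and platelet lists reached the level considered.

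Il18r1, the receptor chain for interleukin 18 and the one marker of the label outside the gate, did not cover every member. It was found in 33 of 48 Gzmc-high and 7 of 10 Gzmc-low cells, at 194 and 127 CPM, and in 0 of 7 Gzmc-zero cells. NK-gated cells carried it at 154 CPM, so it marked the members against dendritic cells (2.28% of cDC1-gated cells) and not against NK-gated cells.

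NK-gated cells were taken as the population most like the Gzmc-high members. They were 106 cells outside the members with at least 2 of Ncr1, Klre1, Klrb1c and Eomes detected, at least 1 UMI of Nkg7, no Xcr1 and at most 2 UMIs of Fscn1. This gate does not separate NK cells from ILC1-like cells. For example, NK-gated cells with 24 and with 22 UMIs of Il7r had 0 of Klre1, Eomes and Gzma. The make-up of the group was not tested. Because a cell with Gzmc would nearly always have entered the members, the Gzmc count of 0 in NK-gated cells follows from the choice, and the 4 NK genes are no findings. The choice left room for 1 UMI of Cd3e per cell, and the observed Cd3e count of NK-gated cells was 0. By the same NK gate, 13 Gzmc-high, 9 Gzmc-low and 1 Gzmc-zero member also qualified. Over all 65 members against NK-gated cells, 148 of 2980 genes considered were at least 2-fold higher (4.97%) and 178 lower (5.97%). With the Gzmc-high members alone, 277 of 3084 were higher (8.98%) and 251 lower (8.14%).

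Of 19 genes of the homing, retention and adhesion list considered, 4 were higher in the Gzmc-high members than in NK-gated cells, 4 were lower and 11 lay within 2-fold. Itgae, the integrin chain of CD103, had 219 UMIs in 47 of 48 Gzmc-high members and 2 in 106 NK-gated cells, 451 against 2.01 CPM and a ratio of 224-fold (61.2 to 1860). It also had 0 UMIs in the Gzmc-low and in the Gzmc-zero members, so within the members it was confined to cells with at least 5 Gzmc UMIs; cDC1-gated cells, which are known to carry CD103, had 42.3 CPM. Itga1, the chain of CD49a, was found in 42 of 48 cells and was 11.5-fold (7.28 to 19.1) higher than in NK-gated cells. Itga2, the chain of CD49b and an NK marker, was 4.73-fold (2.05 to 13.4) lower, and Itga4, an integrin chain of circulating lymphocytes, 10.6-fold (6.08 to 20.1) lower. Klf2, a transcription factor of circulating lymphocytes, was 2.90-fold (2.25 to 3.79) lower.

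Several less familiar genes were common in the Gzmc-high members and rare in NK-gated cells. Ptger3, a receptor for prostaglandin E2, had 88 UMIs in 38 of 48 Gzmc-high members and 0 in NK-gated cells, at least 59.97-fold higher with 3 counts over the group as the floor. By the same floor Ly6g5b was at least 46.3-fold and Pdzk1 at least 40.2-fold higher. Rgcc stood at 338 against 3.02 CPM with 3 UMIs in NK-gated cells, a ratio of 112-fold (37.6 to 548). None of the 4 genes was found in more than 3 of the 106 NK-gated cells.

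Of the ILC1 list, 8 of 17 genes considered were higher in the Gzmc-high members than in NK-gated cells and 3 lower, with a median log2 ratio of 0.36 against -0.06 over all genes considered; 3 of the 8 (Gzmc, Ctsw and Xcl1) belonged to the gate. Tnfsf10 stood at 360.4 against 54.4 CPM, 6.63-fold (4.86 to 9.17) higher, and was found in 44 of 48 cells. Inpp4b, a lipid phosphatase, was 4.88-fold (3.56 to 6.77) higher, Ikzf2, the transcription factor Helios, 4.41-fold (3.20 to 6.13), and Cd160, a receptor of cytotoxic lymphocytes, 2.17-fold (1.85 to 2.55). On the other side Cd226, the activating receptor DNAM-1, was 4.76-fold (2.55 to 9.82) lower, Tmem176a 2.73-fold (1.73 to 4.52) and Tmem176b 3.02-fold (1.92 to 4.98). Tbx21, the transcription factor T-bet of both lineages, stood at 76.2 against 111 CPM, and its interval of the ratio included 1. Eomes, the factor of NK cells, was at 8.24 against 152 CPM, but it was one of the genes of the NK gate.

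Of the NK list, 14 of 23 considered genes were lower in Gzmc-high members and none higher (median log2 ratio -2.23). All 4 genes of the NK gate were among the 14, and the choice of NK-gated cells favoured that direction for them. Klra4, an NK receptor of the Ly49 family, had 480 UMIs in 40 NK-gated cells and 0 in the Gzmc-high members, at least 78.3-fold lower. Klra8, another Ly49 gene, had 1 UMI against 122, 59.7-fold (10.5 to 2376) lower. Ly49 genes are related in sequence, and how reads were assigned among them was not tested. Not every NK receptor differed: Klrk1, the receptor NKG2D, stood at 819.6 against 860.2 CPM, Klrd1 (CD94) at 581 against 892, and the signalling adaptors Tyrobp and Fcer1g were found in all 48 cells at 2646 and 2527 CPM, each within 2-fold of NK-gated cells.

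**Figure D4:**
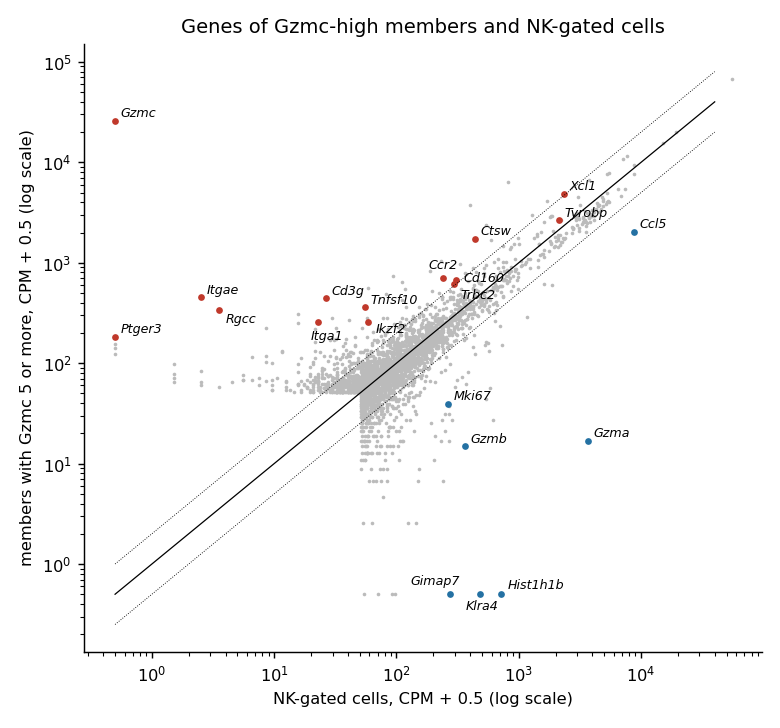
Each point is a gene considered, with its summed level in 106 NK-gated cells on the horizontal axis and in 48 Gzmc-high members on the vertical axis, both as CPM plus 0.5 on log axes; the solid line is equality and dotted lines are 2-fold. Gzmc, Itgae, Rgcc and Ptger3 lie far above the lines, and Gzma, Klra4 and Gimap7 far below.

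Of 13 granzyme and cytotoxic effector genes considered, 5 were lower in the Gzmc-high members than in NK-gated cells, 5 lay within 2-fold and 3 were higher, of which Gzmc and Ctsw belonged to the gate and Tnfsf10 did not. Gzma, the most abundant granzyme of NK cells, had 8 UMIs in the Gzmc-high members, all in 1 of 48 cells, and 3642 in 59 of 106 NK-gated cells, 16.5 against 3668 CPM and 223-fold (113 to 516) lower. Gzmb, at 14.4 against 361 CPM, was 25.01-fold (12.02 to 62.7) lower, again with its 7 UMIs in 1 cell. Gzmd, Gzme, Gzmg and Gzmn, the neighbours of Gzmc in the cluster, were at 0 in the Gzmc-high members and Gzmf had 1 UMI. The pore-forming protein gene Prf1 was found in 32 of 48 Gzmc-high members at 239 CPM (197 to 287), against 284 CPM (252 to 319) in NK-gated cells, and the interval of the ratio included 1. Serpinb9, an inhibitor that shields cells from granzyme B, was 6.73-fold (3.30 to 15.97) lower, and Fasl, another death ligand, 3.42-fold (1.69 to 7.83) lower.

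**Figure D5:**
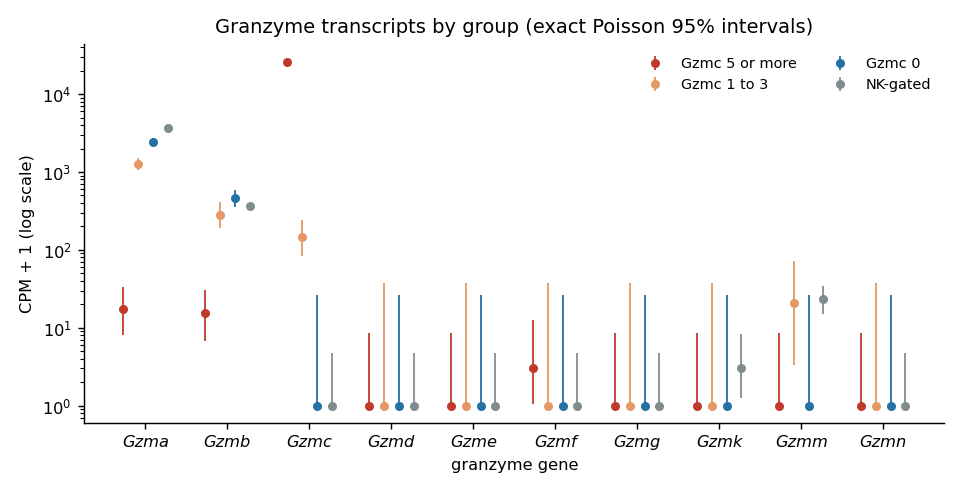
Points give the summed level of each granzyme gene as CPM plus 1 on a log axis in 4 groups of L-cDC cells, and bars are exact Poisson 95% intervals, counting error only. Gzmc stands at 25974 CPM in the Gzmc-high members while Gzma and Gzmb are high in the other groups, where the Gzmc-zero values come from 1 cell.

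Among cytokines, Gzmc-high members carried more Lta and Il2 and less Ccl5. Lta, the gene of lymphotoxin alpha, was 11.7-fold (6.12 to 24.6) higher, with 42.9% of its UMIs in 1 cell. Il2, the T cell growth factor, had 29 UMIs in 22 of 48 Gzmc-high members and 7 in 7 NK-gated cells, 8.47-fold (3.63 to 22.9) higher, and no cell had more than 3. Ccl5, a chemokine for T cells and monocytes, stood at 2026 against 8698 CPM, 4.29-fold (4.02 to 4.59) lower; mature-gated cells held 5482 CPM. Ifng was found in 17 of 48 cells at 98.8 CPM, close to the 129.9 CPM of NK-gated cells. Xcl1, the ligand of the cDC1 receptor XCR1 and a gene of the gate, stood at 4835 CPM in Gzmc-high, 5130 in Gzmc-low, 3018 in Gzmc-zero and 2349 in NK-gated cells. The Gzmc-low level rested on 1 cell, which held 331 of the 526 Xcl1 UMIs of that group.

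Of 10 cytokine receptor genes considered, 4 were higher in the Gzmc-high members than in NK-gated cells, 5 lay within 2-fold and 1, the interferon gamma receptor chain Ifngr1, was lower, at 65.9 against 188 CPM. The higher ones were Il2ra at 5.11-fold (2.99 to 9.06), Tgfbr1 at 4.66-fold (2.87 to 7.79), Tgfbr2 at 2.44-fold (1.66 to 3.59) and Crlf2, a receptor chain for thymic stromal lymphopoietin, at 2.47-fold (1.77 to 3.45). Ccr2, a chemokine receptor, was 2.96-fold (2.51 to 3.51) higher and Lag3, an inhibitory receptor, 5.59-fold (3.64 to 8.80). Il7r, whose history the tdTomato label records, was found in 30 of 48 Gzmc-high, 7 of 10 Gzmc-low and 1 of 7 Gzmc-zero cells. Its level was 227 CPM in Gzmc-high and 296 in NK-gated cells, less than 2-fold apart, and the order of these groups reversed when NK-gated cells needed 3 of the 4 NK genes.

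Genes of T cell signalling were present in Gzmc-high members beyond Cd3g. Of 12 genes of the T cell receptor list considered, 5 were higher than in NK-gated cells: Cd3g at 16.8-fold (11.2 to 26.4), Lat, the adaptor below the receptor, at 2.75-fold (1.74 to 4.38), Trbc2 at 2.08-fold (1.76 to 2.45), Zap70, the kinase bound by CD3, at 2.004-fold (1.32 to 3.03), and Cd3d at 2.60-fold (1.44 to 4.77). The Cd3d result rested on the 4 cells with 5 to 20 Gzmc UMIs: without them its log2 ratio was -0.78. Gata3, a transcription factor of T cells and innate lymphoid cells, was 2.29-fold (1.48 to 3.56) higher, and Irf8, a factor of dendritic cells and of NK cells, was 13.9-fold (6.92 to 32.5) lower.

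Cell cycle transcripts were lower in the Gzmc-high members. Of 15 cell cycle genes considered, 14 were lower than in NK-gated cells and none was higher (median log2 ratio -1.55). Mki67 stood at 39.1 against 265 CPM and Top2a at 61.8 against 367. These UMIs sat in few cells: 6 of 48 Gzmc-high members (12.5%) and 27 of 106 NK-gated cells (25.5%) had at least 10 UMIs over the list, with medians of 2 and 4 per cell. Hist1h1b, a histone gene of the S phase, had 0 against 704 UMIs. Gimap7, a GTPase of resting lymphocytes, had 0 UMIs against 270 in 69 NK-gated cells, at least 44.02-fold lower.

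The 10 Gzmc-low members were not compared with NK-gated cells over all genes, and a few values are given side by side. All carried 0 UMIs of Itgae, 9 passed the NK gate, and Ncr1, the receptor NKp46, stood at 770.4 CPM in them (609.9 to 960.2), against 725 in NK-gated and 150.3 in Gzmc-high cells. Gzma was found in 3 of the 10 at 1278 CPM, against 3668 CPM in NK-gated cells, and Klra4 in 1 at 117 against 483 CPM. Ncr1 and Eomes, the latter found in 5 of the 10, are genes of the NK gate. Itga1 was at 29.3 CPM (6.03 to 85.5), near the 22.2 CPM of NK-gated cells, while Tnfsf10 at 117 CPM lay between both groups. Only 1 member, a Gzmc-low cell, passed the doublet threshold.

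The 7 Gzmc-zero members differed from the Gzmc-high members in 356 genes at least 2-fold higher (13.5% of 2642 considered) and 694 lower (26.3%). The minimum of 5 cells in the higher group asked for 5 of 7 Gzmc-zero but only 5 of 48 Gzmc-high cells. Higher and lower genes were therefore not counted on equal terms. The split between directions moved with the scaling: ribosomal protein, mitochondrial, immunoglobulin and T cell receptor genes took 38.4% of UMIs in Gzmc-zero and 26.1% in Gzmc-high cells, and with these left out of the totals 500 genes were higher and 560 lower, a shift of 0.26 in log2 ratio. Beside the receptor genes, Crtam, an adhesion receptor of activated cytotoxic T cells, stood at 540.0 against 12.4 CPM with 50% of its UMIs in 1 cell, and Tnfrsf9, the costimulatory receptor 4-1BB, at 339 against 35.01 CPM, 9.69-fold (5.48 to 17.9) higher and present in all 7 cells. Mif, a cytokine, was 7.53-fold (6.01 to 9.50) higher and Srm, an enzyme of polyamine synthesis, 11.5-fold (5.92 to 24.01).

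The signalling adaptors of NK cells and ILC1 were nearly absent from the Gzmc-zero members. Fcer1g had 5 UMIs in 2 of 7 cells, 34.6 against 2527 CPM and 73.00-fold (31.2 to 225) lower, and Tyrobp was 38.2-fold (20.7 to 79.9) lower, with 6 of its 10 UMIs in the Cd74-rich cell. S100a4, a calcium-binding protein of motile cells, had 4 UMIs in 1 cell against 1822 in all 48 Gzmc-high cells, 136-fold (52.8 to 498) lower. Id2, the transcription factor that innate lymphoid cells require, was 15.7-fold (9.30 to 28.9) lower, and Ccr2 had 0 UMIs in Gzmc-zero cells, at least 34.2-fold lower. Of the ILC1 list, 10 of 12 considered genes were lower and none higher, with Gzmc, which defines the groups, and Ctsw of the gate among the 10. Of 9 cytokine receptor genes all 9 were lower, with Il7r at 1 UMI in 7 cells (32.7-fold (5.75 to 1304) lower). The unequal minimum of cells holds for these list counts too.

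In the Gzmc-zero group, 5 of 6 considered genes of MHC class II and the dendritic core were higher than in Gzmc-high members. Most of this came from the Cd74-rich cell. Without it, Cd74 was at 314 in place of 1405 CPM and H2-Ab1 at 97.3 in place of 741, near the 288 and 80.3 CPM of the Gzmc-high members. H2-Aa was then at 262 in place of 685 CPM, H2-Eb1 at 180 in place of 623 and Cst3 at 307 in place of 1295.

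Depth and RNA quality of the members moved with the groups. The 7 Gzmc-zero cells had a median of 21881 UMIs, the Gzmc-high cells 9297.5 and NK-gated cells 7523. Mitochondrial UMIs had a median of 5.73% in Gzmc-high, 3.81% in Gzmc-zero, 3.65% in NK-gated and 2.88% in the other L-cDC cells. Without the filter on cells, 87 L-cDC barcodes passed the gate, and the 22 removed all exceeded 10% mitochondrial UMIs, 15 of them with at least 5 Gzmc UMIs. The part of mitochondrial content in the differences between groups was not tested. Of the deposited barcodes, 6 sequences occurred in both libraries, and none was a member.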

How the data were processed

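The single-cell libraries had been made with the 10x Genomics 3′ kit v3.1 and run on an MGI sequencer, per the labels. The authors deposited raw UMI counts per gene and barcode, and per the file headers the matrices came from Cell Ranger 6.1.2, on GRCm38 (mm10) per the submitters' processing notes. L-cDC held 4939 and M-cDC 6674 deposited barcodes over 31053 genes, and kept cells had a median of 8699.5 and 7838.5 UMIs.

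Groups were defined on raw UMIs as stated with the results. UMIs were summed per group and scaled to CPM, with exact Poisson 95% intervals for levels and exact conditional binomial 95% intervals for ratios. Genes passing 50 CPM in the higher group and 30 UMIs over both were counted at 2-fold, and a group at 0 was set to 3 counts. With 1 library per group there was no test. PCR-corrected UMIs of cells from the same library are not independent samples.

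Doublets were scored with Scrublet in scanpy 1.11.5 with a doublet rate of 0.08 assumed. The threshold it set was 0.6353 in L-cDC (3 cells above it) and 0.2584 in M-cDC. The smaller value was used for both libraries and marked 143 L-cDC cells. They were removed only as an alternative. Other tools were scipy 1.17.1, numpy 2.4.6, pandas 2.3.3, Python 3.11.15, biopython 1.88, scikit-image 0.26.0 and matplotlib 3.10.9. Gene positions came from GENCODE vM21 on GRCm38 and promoters from RefSeq on GRCm38.p6.

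Members, gene lists and tests were chosen with earlier results of these data known. Named genes were up to 8 per list by level, the 20 highest against other L-cDC cells and the 12 at each end of the other comparisons. Not named were unnamed models, genes of ribosomal proteins, mitochondria, immunoglobulins, hemoglobins and the sex chromosomes, and genes with over 50% of their UMIs in 1 cell. Other named genes (Il7r, Itgax and further list members) were chosen after their values were seen, as were the Gzmc-high, Gzmc-low and Gzmc-zero groups, the Gzmc minimums of 5 and 25, the split without Trbc2 and the run without the Cd74-rich cell. On simulated counts of the Gzmc-high and NK-gated comparison, 194 of 200 genes changed by 4-fold were counted. All simulated cells of a group shared the same profile, so the result does not cover genes spread unevenly over cells or changes nearer 2-fold.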

Additional observations from a re-analysis of the deposited data

How the results depend on the processing

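The share of members in L-cDC was 0.901% (32 of 3553) with at most 5% mitochondrial UMIs, and the other cell and gate settings left it within its counting interval; M-cDC stayed at 0 in all of them. The share of T-gene-positive members was 46.7% after reduction to 3000 UMIs and 15.4% without Trbc2, and the T-gene-negative share was 52.3% without Trbc2. Counts of genes at 2-fold followed the minimum level. For members against other L-cDC cells they were 1639 higher and 1047 lower at 20 CPM, 434 and 344 at 100 CPM, and 1294 higher with 4 gene families left out of the totals. T-gene-positive against T-gene-negative members gave 113 higher at 100 CPM, and 77 higher and 15 lower after reduction to 3000 UMIs. Members against NK-gated cells gave 262 and 387 at 20 CPM, and 67 and 77 at 100 CPM. Gzmc-high members against NK-gated cells gave 140 and 104 at 100 CPM, 505 lower at 20 CPM and 405 lower without the 4 families. Gzmc-zero against Gzmc-high members gave 377 lower at 100 CPM, and 81 higher and 155 lower after reduction. A higher minimum or fewer UMIs leaves fewer genes to count; for the other changes the cause was not tested.

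Of the single genes tried under these settings, Cd3d reversed between Gzmc-high members and NK-gated cells with at least 25 Gzmc UMIs (log2 ratio -0.78), and Il7r with 3 of 4 NK genes required (0.022). No paired analysis was possible because the groups are single libraries that share replicate number 1 only. Groups of 7 to 48 cells from 1 library limit every value here, and spread between mice was not measured.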

Other observations

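A few transcription factor and marker genes of other lineages, chosen after their values were seen, had these levels in the members. Zbtb16, a transcription factor of innate lymphoid precursors and of invariant T cells, had 0 UMIs in all 65 members. Rora, a factor of type 2 innate lymphoid cells, had 3 UMIs, 2 of them in Gzmc-high cells. Zfp683 (Hobit), a factor of tissue-resident lymphocytes, had 4 UMIs in 4 Gzmc-high cells, against 3 UMIs in NK-gated cells. Siglech, a gene of plasmacytoid dendritic cells, was at 0. Tcf7, a transcription factor of lymphoid progenitors and resting T cells, was found in 46 of 48 Gzmc-high members at 276 CPM. NK-gated cells carried it at 141 CPM, mature-gated cells at 155 CPM and cDC1-gated cells at 8.99 CPM.

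Other genes with the highest ratios of Gzmc-high members over NK-gated cells had 1 or 2 UMIs in the NK-gated group, so their ratios were imprecise. Ptpn5 was found in 30 of 48 cells at a ratio of 96.1-fold (16.4 to 3875), Ptgfrn in 25 at 69.5-fold (11.7 to 2825) and Mpped2 in 22 at 77.7-fold (13.1 to 3149). Edaradd was found in 21 cells at 31.7-fold (8.06 to 273) and Gpr141 in 19 at 63.4-fold (10.6 to 2583). Arnt2, a transcription factor known from neurons, was found in 22 cells at 40.9-fold (10.6 to 349). Between Gzmc-zero and Gzmc-high members, Capg, an actin-capping protein, was found in 45 of 48 Gzmc-high cells, Anxa1, a regulator of inflammation, in 44, Nrgn, a calmodulin-binding protein known from neurons, in 44 and Klrb1f, a receptor of the NK gene complex, in 46. In the 7 Gzmc-zero cells Nrgn had 2 UMIs and the other three had 1 each.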
